A study of Mus musculus with 4 samples.

Results

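The genes described here are 10 regulators of the cell cycle: the CDK inhibitors Cdkn1a, Cdkn1b and Cdkn1c of the CIP/KIP family, the CDK inhibitors Cdkn2a, Cdkn2b, Cdkn2c and Cdkn2d of the INK4 family, the tumor suppressor Trp53, and the pocket proteins Rb1 and Rbl2. They were taken by gene name from the deposited table of raw counts, which holds 51826 genes, and each of the 10 names matched 1 row. Counts were measured by RNA sequencing in cultured mouse dermal papilla cells (DPCs), the mesenchymal cells at the base of the hair follicle, and dermal sheath cells (DSCs), which line its outside. Both were isolated from the vibrissa (whisker) follicles of EGFP-transgenic C57BL/6J mice aged 5 to 6 weeks, and the labels give the genotype as WT. Cells of passage 3 (low passage, P3) and passage 9 (high passage, P9) were sequenced, with 1 library for each of the 4 groups and no other treatment named in the labels. There were therefore no replicates, so no difference below has a replicate check, and a passage or cell type cannot be told apart from the single culture and library that stands for it.

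CDK inhibitors bind cyclin-dependent kinases or their complexes with cyclins and slow the entry into S phase. INK4 proteins bind CDK4 and CDK6, whereas CIP/KIP proteins bind a wider range of cyclin-CDK complexes. The pocket proteins Rb1, Rbl1 and Rbl2 are substrates of these kinases: unphosphorylated, they hold E2F factors and repress genes of the cell cycle, and Rbl2 is a core member of the DREAM complex of resting cells. Trp53 encodes p53, which is controlled mainly through the stability of its protein and which activates Cdkn1a and Mdm2. In cultured mouse fibroblasts, the Cdkn2a locus and p53 are known for their part in the arrest that follows serial passage.

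The 4 libraries held between 34981284 and 47604059 counts. A mean of 10 or more raw counts was required for a gene to be compared, which left 16734, and all 10 regulators were among them. Keratinocyte markers were nearly absent, with Krt5, Krt14, Krt15 and Cdh1 at 0 counts in every library and a summed level of the 7 markers of at most 0.768 CPM (counts scaled to a common library size). The 7 immune markers summed to 117 and 168 CPM in P3 DPCs and DSCs and to 64.3 and 93.7 CPM at high passage, with Cd3e at 0 throughout. The 6 Schwann cell markers summed to 12.1 and 30.5 CPM at low passage and to 3.65 and 5.09 CPM at high passage, where Sox10, Cdh19 and Ngfr were at 0. The 6 endothelial markers summed to 2.55 CPM in P3 and 5.52 in P9 DPCs, and to 8.04 and 1.29 in DSCs. The 7 melanocyte markers summed to 11.9 and 28.3 CPM in DPCs and to 15.4 and 13.0 in DSCs. P9 DPCs stood apart in mesenchymal markers, of which 8 summed to 7373 CPM there and to between 18571 and 27062 CPM in the other libraries. The 7 dermal sheath markers summed to 10310 CPM in P3 and 3668 CPM in P9 DPCs, and to 8231 and 7347 CPM in DSCs. At passage 3 all 7 were higher in DPCs than in DSCs, so the list did not mark the sheath cells there. With passage in DPCs 6 of them were lower, and Itga8 was higher by a log2 difference of 2.38. Acta1, listed as a muscle marker, had 13 counts in P9 DPCs and between 1083 and 1837 elsewhere. The 11 dermal papilla markers were mixed, with sums of 894 and 612 CPM in DPCs and 546 and 969 CPM in DSCs, and Corin was at 0 in both P3 libraries. Crabp1 made up a large part of these sums in the libraries other than P3 DSCs, with 22409, 14584, 1518 and 20405 counts in P3 DPCs, P9 DPCs, P3 DSCs and P9 DSCs. Sox2 was higher in DPCs by log2 differences of 2.67 at passage 3 and 3.39 at passage 9, whereas Ncam1 (-1.65 and -2.87) and Rspo2 (-1.87 and -2.86) were lower. Lef1 turned from 2.35 at passage 3 to -3.56 at passage 9, with 508, 2, 101 and 55 counts in the same order of libraries. Alpl had 8, 10, 23 and 6 counts. The immune and Schwann cell levels moved with passage in both cell types, as several of the regulators did. The endothelial levels moved in opposite directions. The summed mesenchymal and sheath levels were lowest in P9 DPCs, where Cdkn2c was low. The part of any of these levels in the differences below was not tested. In such bulk libraries, fewer cells of a type and less RNA per cell cannot be told apart.

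Levels of different genes were compared per transcript length, on the deposited FPKM scale. Cdkn1a, which encodes p21, had the highest FPKM of the 10 genes in every library, between 156 and 208. Trp53 followed in the P3 libraries with 62.9 FPKM in DPCs and 54.7 in DSCs. At high passage Cdkn2a was above it, with 44.8 FPKM against 41.2 in DPCs and 69.1 against 39.8 in DSCs. Cdkn1c was lowest in P3 DPCs (2.59 FPKM) and in P3 and P9 DSCs (0.179 and 0.883), while in P9 DPCs Cdkn2c was lowest with 3.22 FPKM and Cdkn1c had 3.60. The other genes lay between 3.22 and 28.9 FPKM, as the plot of FPKM by gene shows.

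**Figure D1:**
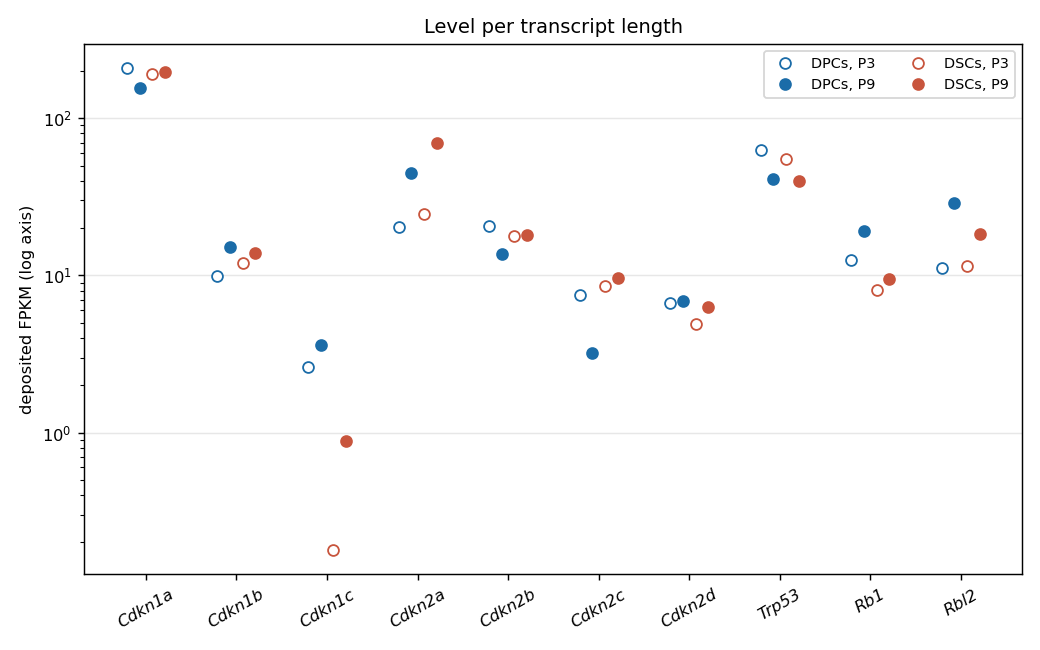
Deposited FPKM (log axis) of the 10 genes in the 4 libraries, blue for DPCs and red for DSCs, open for passage 3 and filled for passage 9; each point is 1 library. Cdkn1a lies between 156 and 208 in all libraries, and Cdkn1c spreads most, from 0.179 to 3.60.

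Summed over its 4 genes, the INK4 family had 55.3 FPKM in P3 and 68.6 in P9 DPCs, and 55.8 and 103 in DSCs. The 3 CIP/KIP genes summed to 221 and 175 FPKM in DPCs and to 203 and 213 in DSCs. INK4 genes thus made up 20.0% of the FPKM of the 7 inhibitors in P3 DPCs and 28.2% in P9 DPCs, and 21.6% and 32.7% in DSCs. Within the INK4 family the share of Cdkn2a was 36.9% and 65.3% in DPCs and 44.2% and 66.9% in DSCs, so it was the larger part of the family in both P9 libraries. Cdkn1a made up between 89.3% and 94.3% of the CIP/KIP sum in every library.

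Cdkn2a had the largest difference with passage that both cell types shared. The gene (ENSMUSG00000044303) lies on the minus strand of chromosome 4 from 89274471 to 89294653 of build GRCm38, 11646 bases from Cdkn2b. It encodes 2 unrelated proteins, p16Ink4a, which binds CDK4 and CDK6, and p19Arf, which binds Mdm2 and stabilizes p53. Their transcripts start 12461 bases apart from different first exons and share later exons, and the deposited value is a single count for the gene, so it does not tell which transcript differed. The windows before each start (250 bases before to 50 after, RefSeq, GRCm38.p6, minus strand) and that of Cdkn2b are shown because the single count covers both starts and because the neighboring gene did not move with it. Capitals mark 4 motifs searched on both strands: GGGCGG (a GC box), TTTCCCGC and TTTGGCGC (E2F sites), and TTTGAA (the cell cycle homology region), none of which overlapped another in the windows printed.
Cdkn2a, Arf start, chr4:89294570-89294869: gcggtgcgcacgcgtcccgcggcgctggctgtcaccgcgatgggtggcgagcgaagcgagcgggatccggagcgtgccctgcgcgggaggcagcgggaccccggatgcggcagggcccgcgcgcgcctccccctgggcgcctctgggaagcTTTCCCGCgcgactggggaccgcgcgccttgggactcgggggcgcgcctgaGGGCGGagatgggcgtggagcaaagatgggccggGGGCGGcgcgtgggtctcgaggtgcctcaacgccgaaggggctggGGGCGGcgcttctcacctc
Cdkn2a, Ink4a start, chr4:89282143-89282442: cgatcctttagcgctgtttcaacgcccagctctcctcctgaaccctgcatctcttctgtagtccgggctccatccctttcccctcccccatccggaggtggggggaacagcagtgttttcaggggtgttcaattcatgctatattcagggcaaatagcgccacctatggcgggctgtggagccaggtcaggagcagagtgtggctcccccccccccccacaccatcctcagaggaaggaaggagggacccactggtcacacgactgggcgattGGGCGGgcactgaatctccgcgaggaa
Cdkn2b, chr4:89310983-89311282: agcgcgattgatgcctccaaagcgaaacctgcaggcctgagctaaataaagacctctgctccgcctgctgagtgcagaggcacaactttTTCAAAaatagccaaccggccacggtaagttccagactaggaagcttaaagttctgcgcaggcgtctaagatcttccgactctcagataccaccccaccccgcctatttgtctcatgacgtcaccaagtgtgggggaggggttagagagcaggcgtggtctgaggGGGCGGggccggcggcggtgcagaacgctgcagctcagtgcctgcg

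The Arf window held TTTCCCGC once and GGGCGG 3 times, the Ink4a window held GGGCGG once, and the Cdkn2b window held GGGCGG and TTTGAA once each. Of 32851 promoter windows of the same length in the mouse, 35.7% held GGGCGG, 1.07% TTTCCCGC, 0.514% TTTGGCGC and 17.9% TTTGAA. Windows were found for 8 of the 10 genes, 11 in all. GGGCGG was in 8 of them, TTTCCCGC in 1, TTTGAA in 2 and TTTGGCGC in 0. A match describes the letters of these windows and is not evidence of binding.

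Cdkn2a had 719 counts in P3 DPCs, 1538 in P9 DPCs, 942 in P3 DSCs and 3211 in P9 DSCs. Scaled to library size, these were 19.5, 42.9, 24.8 and 70.5 CPM, so both P9 libraries lay above both P3 libraries. The level at passage 9 was 2.19-fold that at passage 3 in DPCs, a log2 difference of 1.13 (95% counting interval 1.00 to 1.26). In DSCs it was 2.83-fold, a log2 difference of 1.50 (1.40 to 1.61). The interval is an exact Clopper-Pearson interval of the share of one library in the counts of 2 libraries. It covers counting error only and compares those libraries, not the conditions. Such intervals excluded 0 for 35 of the 40 differences of the 10 genes. Among all genes compared they did so for 77.6% between passages in DPCs, 66.7% between passages in DSCs, 59.5% between cell types at passage 3 and 70.7% at passage 9, so exclusion of 0 was the common case at this depth.

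No other INK4 gene was 2-fold higher at P9 in either cell type. Cdkn2b (ENSMUSG00000073802, chromosome 4, 89306299 to 89311039), which encodes p15Ink4b, an inhibitor of CDK4 and CDK6, had 1153, 750, 1079 and 1361 counts in P3 DPCs, P9 DPCs, P3 DSCs and P9 DSCs. Its level was lower in P9 DPCs by a log2 difference of -0.58 (-0.72 to -0.45) and differed by 0.07 (-0.05 to 0.19) in DSCs, where the interval includes 0. The ratio of Cdkn2a to Cdkn2b in FPKM was 0.988 in P3 DPCs and 3.27 in P9 DPCs. In DSCs it was 1.40 and 3.80, so the ratio was above 3 in both P9 libraries. Mtap, the gene next to Cdkn2a on its other side, which encodes an enzyme of methionine salvage, had log2 differences of -0.89 in DPCs and -0.46 in DSCs. Dmrta1, Ifna2 and Ifnb1, further out on either side, had 0 counts in all libraries, which allows up to 3 counts in each.

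Cdkn2c (ENSMUSG00000028551, chromosome 4, 109660876 to 109667189) encodes p18Ink4c, which also binds CDK4 and CDK6. It had 601 counts in P3 and 224 in P9 DPCs, 16.3 and 6.24 CPM, and 771 and 833 counts in DSCs, 20.3 and 18.3 CPM. P9 DPCs stood apart from the other 3 libraries. The passage 9 level in DPCs was 2.60-fold lower, a log2 difference of -1.38 (-1.62 to -1.16). In DSCs the log2 difference was -0.15 (-0.30 to -0.01), and it turned to 0.17 with the deposited FPKM, so no direction can be given there. Cdkn2d (ENSMUSG00000096472, chromosome 9, 21288410 to 21291407), which encodes p19Ink4d, had 317, 379, 274 and 479 counts in the same order of libraries. Its log2 differences with passage were 0.29 (0.07 to 0.51) in DPCs and 0.54 (0.32 to 0.76) in DSCs, both under 2-fold, and with the deposited FPKM they were 0.04 and 0.35.

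**Figure D2:**
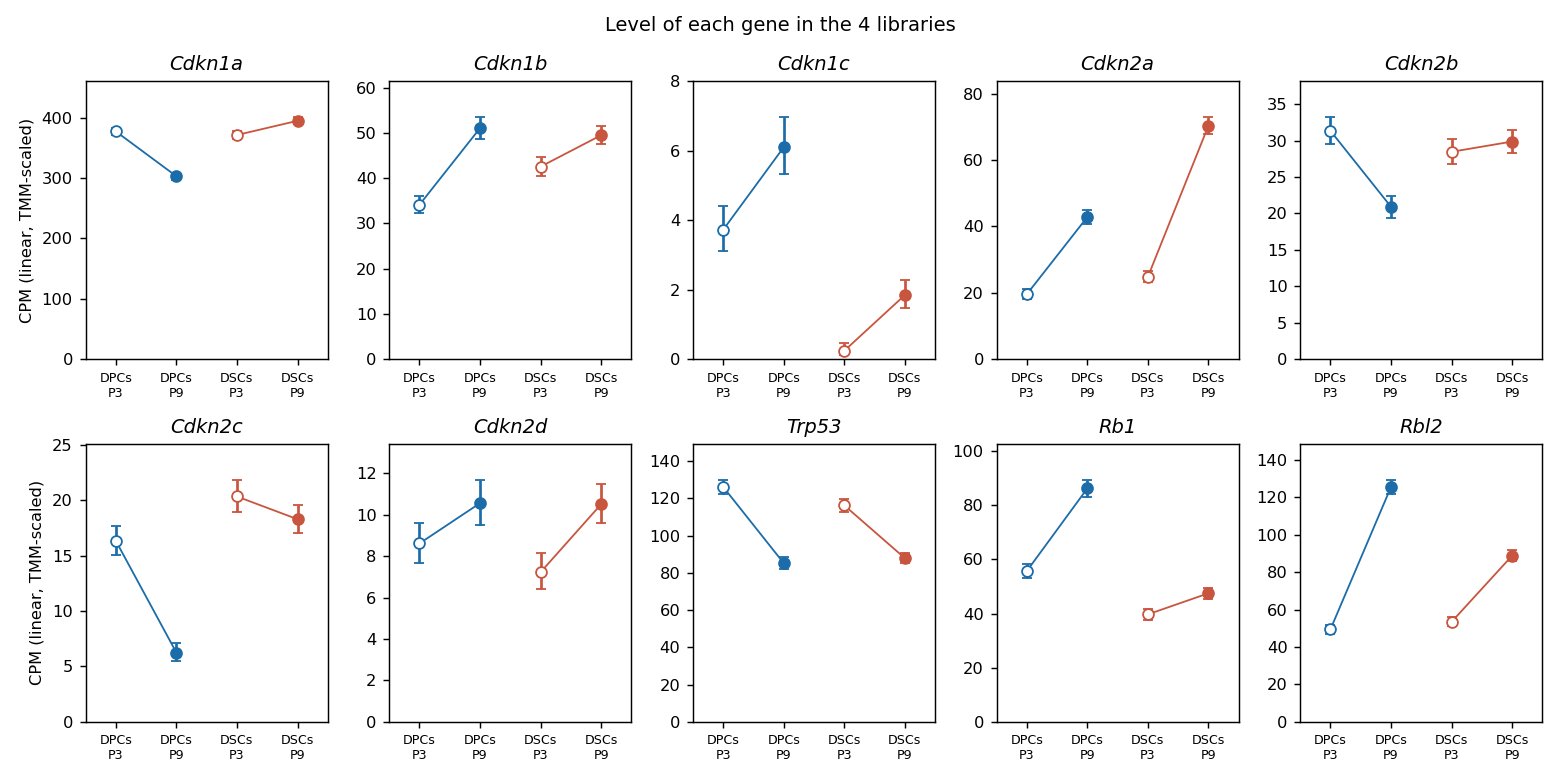
Level of each gene in the 4 libraries in CPM (linear axes from 0, TMM-scaled), blue for DPCs, red for DSCs, open for passage 3 (P3) and filled for passage 9 (P9); bars are exact 95% Poisson intervals and cover counting error only. Cdkn2a and Rbl2 are higher and Trp53 is lower in both P9 libraries, and Cdkn2c is low in P9 DPCs alone.

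Among the CIP/KIP genes, Cdkn1a was the most abundant, and of all 10 genes it varied least, with a range of 0.38 on the log2 CPM scale. Cdkn1a (ENSMUSG00000023067, chromosome 17, 29090976 to 29100727) had 13892 counts in P3 DPCs, 10878 in P9 DPCs, 14088 in P3 DSCs and 18004 in P9 DSCs, which are 378, 303, 372 and 395 CPM. P9 DPCs were lowest, and the levels of P3 DPCs and DSCs did not differ beyond counting error (log2 difference 0.02, -0.01 to 0.06). With passage the log2 difference was -0.32 (-0.35 to -0.28) in DPCs and 0.09 (0.06 to 0.12) in DSCs. These have opposite signs, and neither reaches 2-fold. Of its 50-base windows, 8.49% also occur in other genes.

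Cdkn1b (ENSMUSG00000003031, chromosome 6, 134920401 to 134925513) encodes p27, which holds CDK2 complexes inactive in resting cells and is controlled largely by degradation of the protein. It had 1255, 1832, 1613 and 2255 counts in the same order, or 34.1, 51.1, 42.5 and 49.5 CPM. Both P9 libraries lay above both P3 libraries and did not differ from each other beyond counting error (0.04, -0.04 to 0.13). The log2 difference with passage was 0.58 (0.48 to 0.69) in DPCs and 0.22 (0.13 to 0.31) in DSCs, both under 2-fold.

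Cdkn1c (ENSMUSG00000037664, chromosome 7, 143458339 to 143461050) encodes p57 and is expressed from the maternal allele of an imprinted domain. It had 137 counts in P3 DPCs, 219 in P9 DPCs, 9 in P3 DSCs and 84 in P9 DSCs. With exact 95% Poisson intervals these were 3.72 CPM (3.13 to 4.40), 6.10 CPM (5.32 to 6.97), 0.237 CPM (0.109 to 0.451) and 1.84 CPM (1.47 to 2.28). Both DPC libraries were above both DSC libraries, and in each cell type the passage 9 library was the higher one. DPCs were 13.1-fold above DSCs at passage 3, a log2 difference of 3.71 (3.00 to 5.13), and 3.25-fold above them at passage 9, a log2 difference of 1.70 (1.36 to 2.11). With passage the log2 difference was 0.71 (0.40 to 1.03) in DPCs and 2.71 (1.96 to 4.14) in DSCs. The value in DSCs and the difference between cell types at passage 3 both rest on the 9 counts of P3 DSCs. With the deposited FPKM plus 0.1 the passage value in DSCs was 1.82, under 4-fold, and with FPKM plus 1 it was 0.68, under 2-fold. The difference between cell types at passage 3 was 3.27 with FPKM plus 0.1, 3.01 with a prior count of 10 and 1.61, under 4-fold, with FPKM plus 1. Gm44732, on the opposite strand, overlaps 30.7% of the exonic bases of Cdkn1c and had 0 counts in all libraries.

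Trp53 (ENSMUSG00000059552, chromosome 11, 69580359 to 69591873) had 4644 counts in P3 DPCs, 3058 in P9 DPCs, 4409 in P3 DSCs and 4005 in P9 DSCs, which are 126, 85.2, 116 and 87.9 CPM. Both P9 libraries were below both P3 libraries. The log2 difference with passage was -0.57 (-0.63 to -0.50) in DPCs and -0.40 (-0.47 to -0.34) in DSCs, under 2-fold in each. At passage 9 the cell types did not differ beyond counting error (-0.04, -0.11 to 0.02). Of its 50-base windows, 3.95% also occur in other genes. Transcript counts do not measure the p53 protein.

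Of 12 p53 regulators, 1 passed 2-fold upward and 2 downward in P9 DPCs, against 16.1% and 15.0% of all genes, and none passed 2-fold in DSCs (8.55% and 6.21%). With 12 genes, these shares do not set the list apart from the genes at large. The one that was higher was Hipk2, a kinase that phosphorylates p53, with 1146, 5454, 1000 and 2115 counts and log2 differences of 2.29 (2.19 to 2.38) in DPCs and 0.81 (0.71 to 0.93) in DSCs. The lower genes were the checkpoint kinases Chek1 (-1.57 in DPCs, -0.49 in DSCs) and Chek2 (-1.18 and -0.19). Mdm2, the ubiquitin ligase that degrades p53 and is itself a p53 target, had 4895, 7067, 4593 and 8699 counts, with log2 differences of 0.57 (0.51 to 0.62) in DPCs and 0.66 (0.60 to 0.71) in DSCs. Mdm2 was thus higher in both P9 libraries, where Trp53 was lower, and Cdkn1a, another p53 target, did not share a direction between cell types.

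Of 25 p53 targets in the list used, 3 passed 2-fold upward and 3 downward in P9 DPCs, against 16.1% and 15.0% of all genes, and 1 was higher and none lower in DSCs (8.55% and 6.21%). The shares in the list were not above these, and the genes below are named as a description of it. The median log2 difference of the list was 0.21 in DPCs and 0.23 in DSCs, against 0.03 and 0.00 over all genes compared. The higher genes in DPCs were Perp (2.86 on 9 and 75 counts, and 0.13 in DSCs), Sesn1 (2.01 and 0.92) and Ddb2 (1.39 and 0.42). The lower ones were Bbc3 (-1.24), which encodes the cell death factor PUMA, Sesn2 (-1.08) and Trp53inp1 (-1.03). In DSCs the gene past 2-fold was Btg2, an antiproliferative factor, with 1.47 (1.40 to 1.55) there and 0.60 in DPCs. Regardless of size, 14 of the 25 targets were higher and 11 lower in P9 DPCs, which is near the 51.3% of all genes that were higher there. In P9 DSCs 20 were higher and 5 lower, where 50.2% of all genes were higher.

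The pocket proteins Rb1 and Rbl2 were higher in both P9 libraries. Rbl2 (ENSMUSG00000031666, chromosome 8, 91070057 to 91123844), which encodes p130, had 1819 counts in P3 DPCs, 4507 in P9 DPCs, 2026 in P3 DSCs and 4049 in P9 DSCs, or 49.4, 126, 53.4 and 88.8 CPM. P9 DPCs were highest, P9 DSCs next, and the P3 libraries were close to each other. The passage 9 level was 2.54-fold higher in DPCs, a log2 difference of 1.34 (1.27 to 1.42), and 1.66-fold higher in DSCs, a log2 difference of 0.73 (0.66 to 0.81). On the opposite strand, Aktip and Gm45464 overlap 21.0% of the exonic bases of Rbl2, and the use of strand in counting is not given in the sources used here. Aktip had 1127, 1404, 1129 and 1658 counts and Gm45464 23, 80, 42 and 67, so their counts together were below those of Rbl2 in every library. The window at the start of Rbl2 (RefSeq, GRCm38.p6, plus strand) is shown because this gene had the largest difference of the pocket proteins. It holds GGGCGG and TTTGAA once each, the latter read on the other strand as TTCAAA.
Rbl2, chr8:91069807-91070106: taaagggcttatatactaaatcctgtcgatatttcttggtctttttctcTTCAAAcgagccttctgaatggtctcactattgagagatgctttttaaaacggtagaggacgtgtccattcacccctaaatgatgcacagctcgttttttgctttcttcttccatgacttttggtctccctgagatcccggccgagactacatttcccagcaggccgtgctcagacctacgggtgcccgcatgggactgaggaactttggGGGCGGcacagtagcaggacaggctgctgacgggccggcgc

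Rb1 (ENSMUSG00000022105, chromosome 14, 73183673 to 73325822), the retinoblastoma gene, had 2050, 3097, 1506 and 2165 counts in the same order, or 55.7, 86.3, 39.7 and 47.5 CPM. Both DPC libraries lay above both DSC libraries. The log2 difference of DPCs over DSCs was 0.49 (0.39 to 0.59) at passage 3 and 0.86 (0.78 to 0.94) at passage 9. With passage it was 0.63 (0.55 to 0.71) in DPCs and 0.26 (0.16 to 0.35) in DSCs. Rcbtb2 and Lpar6, on the opposite strand, overlap 14.9% of its exonic bases and had 872, 1365, 877 and 1203 counts and 500, 724, 214 and 423 counts.

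Rbl1, the third pocket protein gene, which encodes p107, had the opposite sign, with 1050, 524, 1067 and 797 counts and log2 differences of -0.96 (-1.12 to -0.81) in DPCs and -0.68 (-0.82 to -0.55) in DSCs. The FPKM ratio of Rbl2 to Rbl1 was 1.87 in P3 and 9.84 in P9 DPCs, and 2.07 and 5.20 in DSCs. The ratio of Rbl2 to Rb1 was 0.881 and 1.51 in DPCs and 1.42 and 1.95 in DSCs. Among the pocket protein genes, Rbl2 thus had the highest FPKM in all libraries but that of P3 DPCs, where Rb1 had.

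Counted over the 10 genes, few differences were large. Between passages in DPCs, 0 of 10 passed 4-fold, where 9.94% of all genes compared did. At 2-fold, Cdkn2a and Rbl2 were higher (2 of 10, against 16.1% of all genes) and Cdkn2c was lower (1 of 10, against 15.0%). Between passages in DSCs, 1 of 10 passed 4-fold, Cdkn1c (3.82% of all genes), 2 were 2-fold higher, Cdkn1c and Cdkn2a (8.55%), and 0 were 2-fold lower (6.21%). Cdkn2a was the 1 gene of the 10 that was 2-fold higher in both cell types, as were 4.86% of all genes. With 10 genes, 1 gene is 10%, so these shares do not set the group apart from the genes at large. The median log2 difference with passage over the 10 genes was 0.44 in DPCs and 0.24 in DSCs, against 0.03 and 0.00 over all genes.

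Between cell types at passage 3, Cdkn1c alone passed 4-fold (1 of 10, against 4.30% of all genes) and alone was 2-fold higher in DPCs (5.43%), and 0 of 10 were 2-fold lower (7.86%). At passage 9, 0 of 10 passed 4-fold (6.42%), Cdkn1c was 2-fold higher in DPCs (9.11%), and Cdkn2c was 2-fold lower (11.0%), with a log2 difference of -1.54 (-1.77 to -1.34). Cdkn2a was lower in DPCs than in DSCs at both passages, by log2 differences of -0.35 (-0.49 to -0.20) and -0.72 (-0.81 to -0.63). The difference with passage in DSCs minus that in DPCs was 2.01 for Cdkn1c, 1.23 for Cdkn2c, 0.37 for Cdkn2a and -0.61 for Rbl2, and whether the cell types respond differently was not tested, since no group had a replicate. The passage and cell type differences use the same 4 libraries and are not separate evidence.

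**Figure D3:**
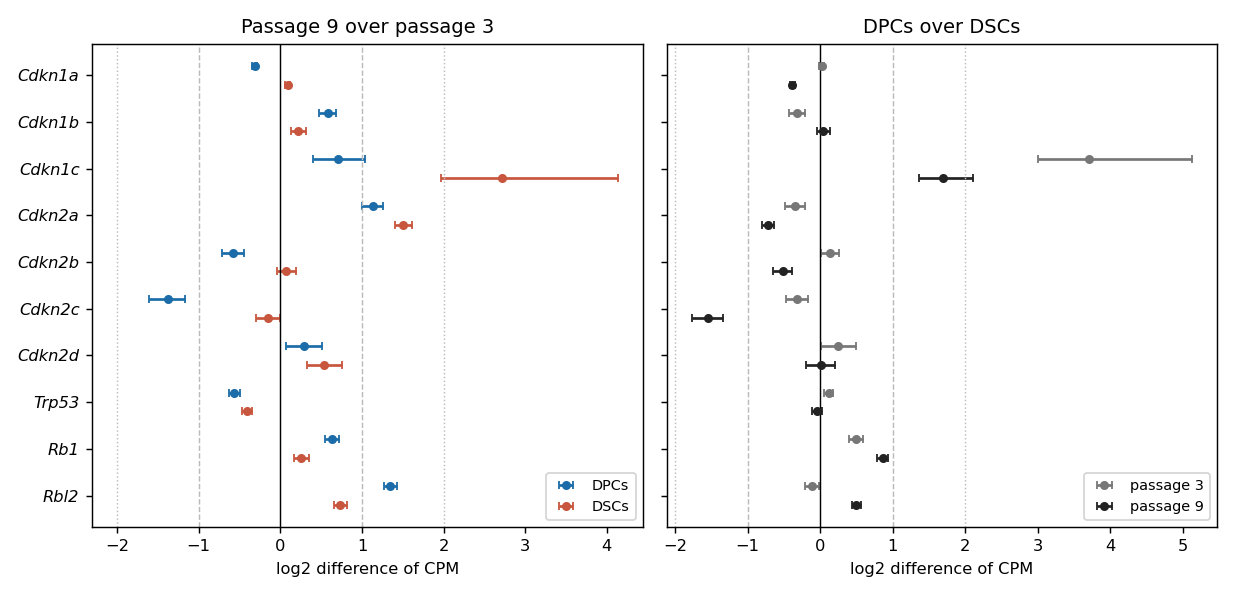
Log2 difference of CPM for the 10 genes, passage 9 over passage 3 on the left and DPCs over DSCs on the right, with 95% counting intervals; dashed lines mark 2-fold and dotted lines 4-fold. Cdkn1c passes 4-fold in DSCs with passage (2.71) and between cell types at passage 3 (3.71), and Cdkn2c differs between passages in DPCs (-1.38) but little in DSCs (-0.15).

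An additive model of cell type and passage asked whether a difference was shared by both cell types. It leaves 1 degree of freedom for the spread, which is the difference between the DPC and DSC responses and not that between replicate cultures. In the quasi-likelihood test of edgeR, with p-values adjusted by Benjamini-Hochberg over all genes, 0 of the 10 genes were called for passage and 0 for cell type, as were 0.00% of all genes for each term. Before adjustment, 2822 genes had a p under 0.05 for passage, Cdkn2a and Rbl2 among them, and 1381 for cell type, Cdkn1c and Rb1 among them. For passage, the edgeR fit gave Cdkn2a a log2 difference of 1.32 with an adjusted p of 0.188, and Rbl2 1.04 with an adjusted p of 0.22. For cell type it gave Cdkn1c 2.73 with an adjusted p of 0.365 and Rb1 0.67 with an adjusted p of 0.524. The DESeq2 Wald test called 2 of the 10 genes for passage, Cdkn2a (adjusted p 0.00371) and Rbl2 (0.0334), where it called 5.71% of all genes. For cell type it called Cdkn1c (adjusted p 0.0201), 1 of 10, against 2.96% of all genes. The calls thus depended on the tool.

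The genes on which these regulators act were read out from lists of known partners. Of 10 CDKs and cyclins bound by the inhibitors, 5 were at least 2-fold lower in P9 DPCs (15.0% of all genes) and 1 was higher (16.1%), and 2 were lower in DSCs (6.21%). Ccna2, the S phase and G2 partner of CDK2 and CDK1, had 3393, 349, 2953 and 927 counts, with log2 differences of -3.24 (-3.41 to -3.09) in DPCs and -1.93 (-2.04 to -1.83) in DSCs. Ccnd1, the D-type cyclin that pairs with CDK4 and CDK6, had 20280, 7695, 24377 and 29642 counts. P9 DPCs stood apart for Ccnd1 as they did for Cdkn2c, with a log2 difference of -1.36 (-1.40 to -1.32) in DPCs and 0.02 (-0.01 to 0.04) in DSCs. The other lower genes in DPCs were Cdk1, Cdk4 and Ccne2, between -1.71 and -1.04, and the higher gene was Ccnd3 with 1.59.

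Of 17 genes of the E2F family and the DREAM complex, 4 were at least 2-fold lower and 1 was at least 2-fold higher in each cell type. Over all genes, 15.0% were lower and 16.1% higher in P9 DPCs, and 6.21% and 8.55% in P9 DSCs, so in DPCs the number lower was not far from that share. Among the lower genes, the largest differences were those of E2f2 (-3.31 on 78 and 6 counts in DPCs, -1.87 in DSCs), Mybl2 (-2.90 and -1.53) and E2f8 (-2.42 and -1.46). The fourth lower gene, E2f7, had -1.34 and -1.06. Tfdp2, a dimer partner of E2F proteins, was higher in both cell types, with 2.18 (2.09 to 2.27) for DPCs and 1.69 (1.57 to 1.81) for DSCs. Of 16 genes of S phase and mitosis repressed by pocket proteins in resting cells, 14 were at least 2-fold lower in P9 DPCs (15.0% of all genes) and 8 in DSCs (6.21%), with medians of -1.79 and -1.10 against 0.03 and 0.00 over all genes. In DPCs the largest differences were those of Ccnb1 (-3.45, and -1.75 in DSCs), Bub1 (-3.02 and -1.23), Plk1 (-2.94 and -1.71) and Aurkb (-2.80 and -1.63), all of mitosis. In DSCs Mcm5 (-1.29), Top2a (-1.28), Mki67 (-1.28) and Tk1 (-1.28) lay ahead of Bub1. All 16 were lower at passage 9 in both cell types, where 51.3% of all genes were higher in DPCs and 50.2% in DSCs.

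Known regulators of the inhibitors were described in the same way. Of 19 repressors of the Cdkn2a locus, 3 were at least 2-fold higher in P9 DPCs, namely Cbx7 (1.92), Tbx3 (1.39) and Phc1 (1.29), and 2 in DSCs, Id1 (1.47) and Tbx3 (1.38). These counts were close to the 16.1% and 8.55% of all genes that were 2-fold higher and are no result about the list. The Polycomb methyltransferase Ezh2 was the 1 gene of the list that was 2-fold lower (15.0% and 6.21% of all genes were), with 735, 266, 710 and 369 counts and log2 differences of -1.42 (-1.64 to -1.23) in DPCs and -1.20 (-1.39 to -1.03) in DSCs. None of 6 activators of the locus passed 2-fold in either cell type. Of 8 genes of p27 turnover and transcription, Skp2 (-1.56 in DPCs, -0.84 in DSCs) and Cks1b (-1.75 and -0.55), both of the ligase that degrades p27, were 2-fold lower in DPCs (15.0% of all genes) and none was in DSCs (6.21%). The plot of these lists shows the S phase and mitosis genes to the left of 0 in both cell types, while the repressors and activators of Cdkn2a lie on both sides of it.

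**Figure D4:**
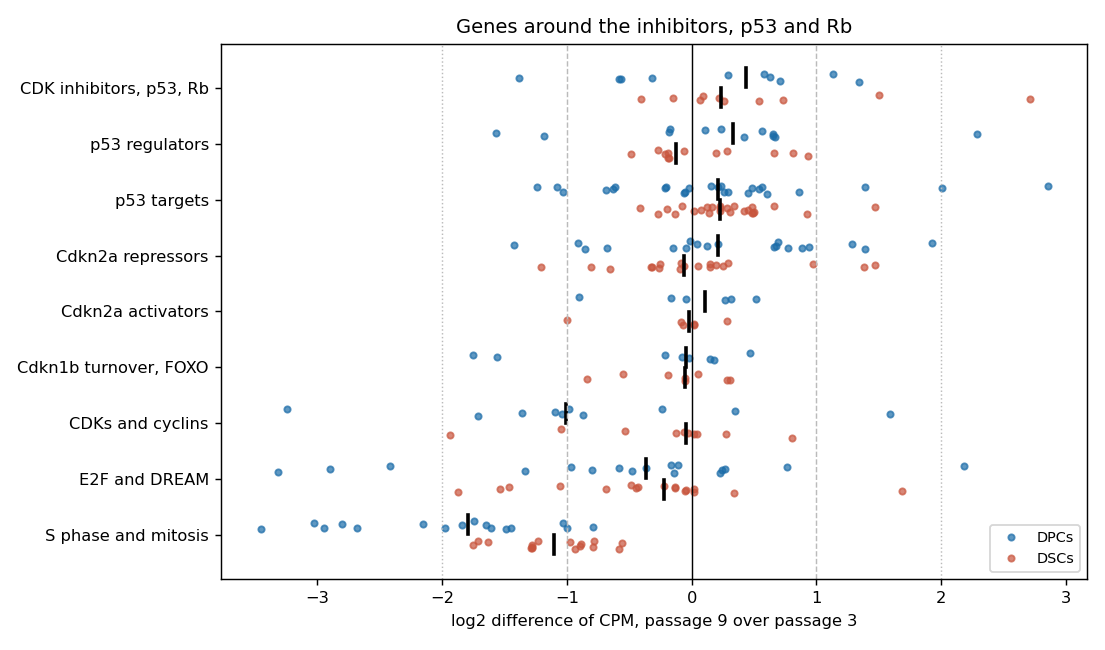
Log2 difference of CPM at passage 9 over passage 3 for the 10 genes and for lists of their regulators, partners and targets; each point is 1 gene, blue in DPCs and red in DSCs, and black bars are list medians. The S phase and mitosis list has medians of -1.79 and -1.10, and the CDK inhibitors, p53 and Rb have 0.44 and 0.24.

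For the 3 regulators whose log2 level ranged most over the libraries, the genes nearest in pattern were found by the distance of their centered log2 CPM over the 4 libraries. With 4 points such likeness is weak: 88 genes lay within 0.5 of Cdkn2a and 264 within 0.5 of Cdkn2c. The nearest to Cdkn2a were Abhd3, Catip and Col11a2, at distances of 0.11 to 0.13. The nearest to Cdkn2c were AC122273.2, Reep2 and Rragd, at 0.08 to 0.09. Cdkn1c, which ranged over 4.41 on the log2 scale, had 1 gene within 0.5, Gm44529 (0.29), followed by Gm10658 and Itga4 (0.54 each). Gm44529 and Gm10658 had at most 34 counts in a library, whereas the integrin gene Itga4 had 7224, 12256, 796 and 7052 counts.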

How the data were processed

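RNA was sequenced from 4 libraries, 1 each of DPCs and DSCs at passages 3 and 9, which were grouped by the submitters' labels. The authors deposited raw counts per gene, whole numbers that were not normalized, and FPKM, which the authors had scaled for transcript length and depth. The submitters' processing notes name Bowtie 0.12.2 and builds mm8 and mm9, but the positions in the FPKM tables follow GRCm38: of 51633 gene IDs shared with GENCODE M21, 94.1% had an identical position. The counting program and the use of strand are not given in the sources used here. The labels name a TruSeq kit and the study's methods another kit with poly-T selection. Even counts were in excess, and whether both mates of a read pair were counted was not tested; with halved counts, 30 rather than 35 of 40 intervals exclude 0.

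Counts were scaled with TMM in edgeR 4.0.16 (R 4.3.3, limma 3.58.1), and genes averaging 10 or more raw counts were compared. A difference is that of log2 CPM (prior count 2). It was called at 4-fold, the threshold of the study, and at 2-fold as a second rule. With 1 library per group, only an additive edgeR quasi-likelihood fit with 1 residual degree of freedom could be made, with DESeq2 1.42.0 as the alternative, and both were tested on simulated data. Intervals at 95% came from scipy 1.17.1, and they and all depths cover counting error only. Alternatives were total counts, DESeq2 size factors, upper-quartile scaling, prior counts of 0.5 and 10, no filter, a minimum mean count of 100, halved counts, and FPKM plus 0.1 or 1. All 10 regulators were named. From the partner lists, genes past 4-fold with passage in either cell type were named, at most the 4 largest of a list, besides Rbl1, Mdm2 and Ccnd1. Genes named because few of a list passed 2-fold (Chek1, Chek2, Ddb2, Bbc3, Sesn2, Trp53inp1, Btg2, Cdk1, Cdk4, Ccne2, Ccnd3, E2f7, Cbx7, Tbx3, Phc1, Id1, Ezh2, Skp2 and Cks1b), and the neighboring genes, were chosen after their values were seen. The 10 regulators and all lists were chosen with earlier results of these data known.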

Additional observations from a re-analysis of the deposited data

Results flagged for a closer look

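Cdkn1a had a change with passage of opposite sign in DPCs and DSCs, and this is why it was picked out. The log2 difference was -0.32 in DPCs and 0.09 in DSCs, with counting intervals on opposite sides of 0, and the change in DSCs minus that in DPCs was 0.41. The difference between the cell types was not tested, since each group had 1 library. Over the alternatives the value in DSCs lay between 0.05 and 0.09, and that in DPCs between -0.42 and -0.32. Cdkn2b also had opposite signs, -0.58 in DPCs and 0.07 in DSCs, where the interval included 0. Its change in DSCs minus that in DPCs was 0.65, larger than that of Cdkn1a. Those of Cdkn1c (2.01), Cdkn2c (1.23) and Rbl2 (-0.61) were also larger in size.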

How the results depend on the processing

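Of 400 values, the 40 differences of the 10 genes under 10 alternatives, 360 moved by less than their counting interval, 35 moved further with the same sign and 5 turned sign. The 360 include 40 values each for no filter and for a minimum mean count of 100, which cannot change these differences. They also include the 40 for halved counts, which can change them little except at low counts. These values are no check of the differences. The log2 difference of Cdkn2c with passage in DSCs turned from -0.15 to 0.17 with FPKM plus 0.1 and 0.16 with FPKM plus 1. That of Trp53 between cell types at passage 9 turned from -0.044 to 0.055 with total counts, 0.050 with FPKM plus 0.1 and 0.049 with FPKM plus 1. The number of genes past the threshold between passages at 2-fold went from 0 to 3 for DPCs and from 1 to 2 for DSCs, and that for DSCs went to 0 with FPKM plus 0.1 and 0 with FPKM plus 1. Between cell types it went from 1 to 0 at passage 3 with FPKM plus 1, and from 0 to 2 at passage 9 at 2-fold. The DESeq2 Wald test called 2 of the 10 genes for passage and 1 for cell type, and over all genes 955 and 496, where edgeR's quasi-likelihood test called 0. With DESeq2 size factors or a minimum mean count of 100, edgeR called 5 genes for cell type, none of them among the 10. The cause of these shifts was not tested. No paired analysis was possible because each group had 1 library and the labels carry no replicate numbers to pair, although the additive model compares passages with cell type as a term. Depth limits Cdkn1c most, since P3 DSCs had 9 counts. Whether both mates of a read pair were counted, and whether strand was used, was not tested here.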

Other observations

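Cdkn1c lies in an imprinted domain of chromosome 7, and 7 of its 10 imprinted or neighboring genes examined passed the minimum mean count. H19, a noncoding RNA expressed from the maternal allele like Cdkn1c, had 98 counts in P3 DPCs, 64 in P9 DPCs, 10 in P3 DSCs and 12 in P9 DSCs. Its level was higher in DPCs by log2 differences of 3.11 at passage 3 and 2.54 at passage 9, and the difference with passage was -0.57 (-1.06 to -0.11) for DPCs and 0.00 (-1.34 to 1.37) for DSCs. Igf2, a growth factor gene expressed from the paternal allele, had 361, 1305, 536 and 662 counts, with log2 differences with passage of 1.88 (1.72 to 2.06) for DPCs and 0.04 (-0.13 to 0.21) for DSCs. Slc22a18, next to Cdkn1c, had 36, 6, 68 and 67 counts, with log2 differences of -2.24 (-4.09 to -1.29) in DPCs and -0.28 (-0.80 to 0.22) in DSCs. Kcnq1ot1, the noncoding RNA of the domain, differed by 0.26 in DPCs and 0.23 in DSCs. These genes were described without a test. Like Cdkn1c, H19 was higher in both DPC libraries than in both DSC libraries, but it was not higher at passage 9. Kcnq1ot1 had the signs of Cdkn1c at small size, with 0.24 and 0.27 for DPCs over DSCs at passages 3 and 9. Unlike Cdkn1c, Igf2 was lower in DPCs than in DSCs at passage 3 (-0.52), and Slc22a18 was lower with passage in DPCs.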
